A study of Mus musculus with 23 samples.

Results

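The frontal cortex of mice with free access to a chocolate mixture (CM) was compared with that of mice kept on standard chow (SC). The comparison used 3 CM and 4 SC arrays, chosen by the tissue and diet of their labels, out of the 23 arrays of the series. All animals were female C57BL/6 mice, labelled with an age of 5 weeks, which the methods give as their age at the start. For 8 weeks the SC mice, labelled lean, ate chow, while the CM mice, labelled obese, chose freely between chow and the chocolate mixture. Both groups then passed through an 11-day battery of behavioural tests before dissection. The SC mice also met the chocolate mixture in a limited-access test of that battery, so they were not a group that had never eaten it. Each array carried Cy3-labelled RNA of a dissected piece of tissue from 1 mouse, with every cell type of the piece in it. The 3 CM arrays (mice 54, 56 and 58) lay together on slide 3, the SC arrays of mice 54, 56 and 58 on slide 1 and that of SC mouse 52 on slide 2. No slide held frontal cortex of both diets, so slide and diet cannot be told apart within this tissue and no within-slide value exists. Chow frontal cortex lay on slides 1 and 2, so only these could be compared within the tissue, across mice. What slide 3 adds could be estimated only through striatum and a tissue labelled thalamic region, which the methods name hypothalamus.

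The frontal cortex takes part in valuing food, in planning and in holding back a learned response. Its pyramidal neurons send glutamate signals to the striatum and hypothalamus, and its interneurons restrain them with GABA. When these neurons fire, immediate early genes such as Fos and Arc are transcribed within minutes. Oligodendrocytes wrap the axons in myelin, and astrocytes and microglia maintain and survey the tissue. Chemoreceptor genes (olfactory, vomeronasal and taste receptors) are known from the nose and tongue.

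The neuronal markers set the frontal cortex arrays apart from the thalamic region and not from every striatum array. The mean log2 level of 17 pyramidal and cortical layer markers was 10.84 to 11.36 on the frontal cortex arrays, 9.31 to 10.99 on the striatum arrays and 8.46 to 9.15 on the thalamic region arrays, and that of SC mouse 54 was higher in its striatum (10.99) than in its frontal cortex (10.84). Some frontal cortex arrays also carried markers of neighbouring tissue. The 8 olfactory bulb markers averaged 11.55 on the array of SC mouse 54 and 6.77 to 7.57 on the other 6. The 11 striatum markers averaged 9.32, 10.78, 11.36 and 11.31 in SC mice 52, 54, 56 and 58 and 9.33, 9.65 and 11.29 in CM mice 54, 56 and 58, so the low arrays came from both diets. The array of SC mouse 52 stood nearer to the CM arrays than to its own group. Its Pearson correlation over all identifiers was 0.993 to 0.994 with the CM arrays and 0.983 to 0.988 with the other SC arrays. Limma called 0 of 15 hypothalamus and 0 of 10 thalamus markers between the diets, of which 1 and 2 had an unadjusted p under 0.05. Without SC mouse 52, 2 thalamus markers were lower, without SC mouse 56, 2 of each list were lower, and with frontal cortex arrays only 3 hypothalamus markers were higher and 1 thalamus marker was called each way. Between 41481 and 42261 spots were well above background on the CM arrays, against 36432 to 38472 on the SC arrays.

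Of 31395 transcript identifiers, 4823 were higher and 4155 lower in CM at an adjusted p under 0.05, the threshold at which a gene is called here (limma, moderated over all 23 arrays, no slide term). These are 15.4% and 13.2% of the identifiers, or 28.6% in both directions. A stricter threshold from the methods required an adjusted p under 0.01 and a change of 2-fold or more (differentially expressed, DE). It was passed by 834 higher (2.66%) and 88 lower identifiers (0.28%), 2.94% in all. The CM and SC arrays did not overlap at 7944 identifiers (25.3%). Large rises were more frequent among dim spots. In the brightest quartile 83 identifiers were DE higher (1.06%) and 5 lower (0.0637%), against 241 (3.07%) and 26 (0.331%) in the dimmest. At the looser threshold the brightest quartile held 11.2% higher and 14.2% lower, and the dimmest 16.1% and 7.06%. Of the 834 rises, 351 had a spot that was not above background on every frontal cortex array, and 251 were genes with an established symbol (1.59% of such genes). Among all 15818 genes with such a symbol the balance turned, with 1540 higher (9.74%) and 2321 lower (14.7%). The gene lists below hold 1 identifier per symbol, so these shares are the closer base for them, although shares of all identifiers are also given.

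The counts depended on how slide was modelled. With slide as a fixed block, limma called 0 identifiers, and 2219 (7.07%) had an unadjusted p under 0.05. In each tissue the CM arrays lay on 1 slide, so the slide term rested on chow arrays alone. Those on slide 3 were 1 striatum and 3 thalamic region arrays, so the fit was less precise and cannot tell slide from diet. The median log2 change of the 834 DE rises was 1.24 without a slide term and 0.12 with slide as a fixed block. That of the 88 falls was -1.16 and -0.61. A random slide block left 1422 identifiers (4.53%) higher and 576 (1.83%) lower, of which 169 and 2 were DE. Single arrays moved the count of DE falls most, from 88 to 32 without SC mouse 54, 46 without CM mouse 56, 48 without CM mouse 54, 150 without SC mouse 56, 183 without SC mouse 52 and 193 without CM mouse 58. The DE rises numbered 674 to 1093 over the same omissions. The identifiers called lower fell from 4155 to 2377 without SC mouse 54. The balance also moved with other preprocessing. With the scanner's processed signal scaled to its 75th percentile on each array, in place of normexp and quantile normalisation, 68.5% of the called identifiers were higher, against 53.7%. Below, "rose" and "fell" refer to the fit without a slide term, and none of these calls was made with slide as a fixed block.

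The rises described first are the 12 largest among bright, established genes whose CM and SC arrays did not overlap, so the separation of the diets in them is part of how they were chosen. Values below are log2 levels on the arrays of SC mice 52, 54, 56 and 58, then of CM mice 54, 56 and 58. Plcd4, a phospholipase C that splits membrane phosphoinositides, read 15.89, 15.21, 15.10 and 14.93 in SC and 16.24, 16.27 and 16.21 in CM. SC mouse 52 was the highest of its group. Its log2 change was 1.07 ± 0.14 (SE, adjusted p = 4.1e-05, limma). The probe lies at chr1:74614298-74614357 (mm9, as all probe positions here), and 2 other Plcd4 identifiers gave 0.01 and -0.20 and were not called. Dnase2a, the lysosomal DNase that degrades the DNA of engulfed cells, read 15.38, 14.66, 14.44 and 14.24 in SC and 15.64, 15.61 and 15.64 in CM, a change of 1.09 ± 0.16 (adjusted p = 0.00011). Rps21, a protein of the small ribosomal subunit, read 14.62, 13.44, 13.40 and 13.60 in SC and 14.87, 14.92 and 14.79 in CM, a change of 1.25 ± 0.17 (adjusted p = 6.7e-05). In all 3 the chow array on slide 2 lay nearer to the CM arrays than the 3 chow arrays on slide 1 did.

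The synaptic gene Arc showed another pattern. Arc encodes a protein made at active synapses that helps withdraw AMPA receptors from the membrane. It read 11.98, 11.37, 11.81 and 11.39 in SC and 13.09, 13.27 and 12.67 in CM (probe at chr15:74499592-74499651). SC mouse 52 was the highest SC array here too but lay close to SC mouse 56, and Arc was the only one of the 12 rises for which it was nearer to its own group. The log2 change was 1.44 ± 0.28, a 2.72-fold rise (adjusted p = 0.00077). It was 1.30 with slide as a random block (adjusted p = 0.04) and 0.55 ± 0.57 with slide as a fixed block. In the striatum Arc changed by 0.91 (adjusted p = 0.061) and was not called there.

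The other 8 bright rises followed the first pattern, with SC mouse 52 nearer to the CM arrays. Slc25a22, a mitochondrial glutamate carrier, had the largest change among them. It read 12.52, 10.56, 10.87 and 11.16 in SC and 12.69, 12.62 and 12.55 in CM, a change of 1.53 ± 0.25 (adjusted p = 0.0002) that turned to -0.24 with slide as a fixed block. Cnr2, the cannabinoid receptor best known from immune cells, read 11.65, 10.82, 10.66 and 10.46 in SC and 12.17, 12.15 and 12.07 in CM, a change of 1.38 ± 0.16 (adjusted p = 3.2e-05). Cd244, a receptor of natural killer cells, changed by 1.34 ± 0.17 (adjusted p = 4.1e-05), with SC levels of 10.67 to 11.77 and CM levels of 12.15 to 12.19. The others rose by 1.001 to 1.16, among them the homeobox gene Dlx3 (1.001), Slfn9 of the Schlafen family (1.08), the zinc finger gene Zfp119b (1.11) and Pot1a, which protects telomere ends (1.16). All 12 kept their call with slide as a random block. In the striatum 11 of the 12 were called lower in CM (median -0.94), and in the thalamic region 0 were called in either direction. The striatal CM arrays lay together on slide 1, the slide of the low SC frontal cortex arrays. The part of slide in these 12 rises was not tested within the frontal cortex, where no slide held both diets.

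**Figure D1:**
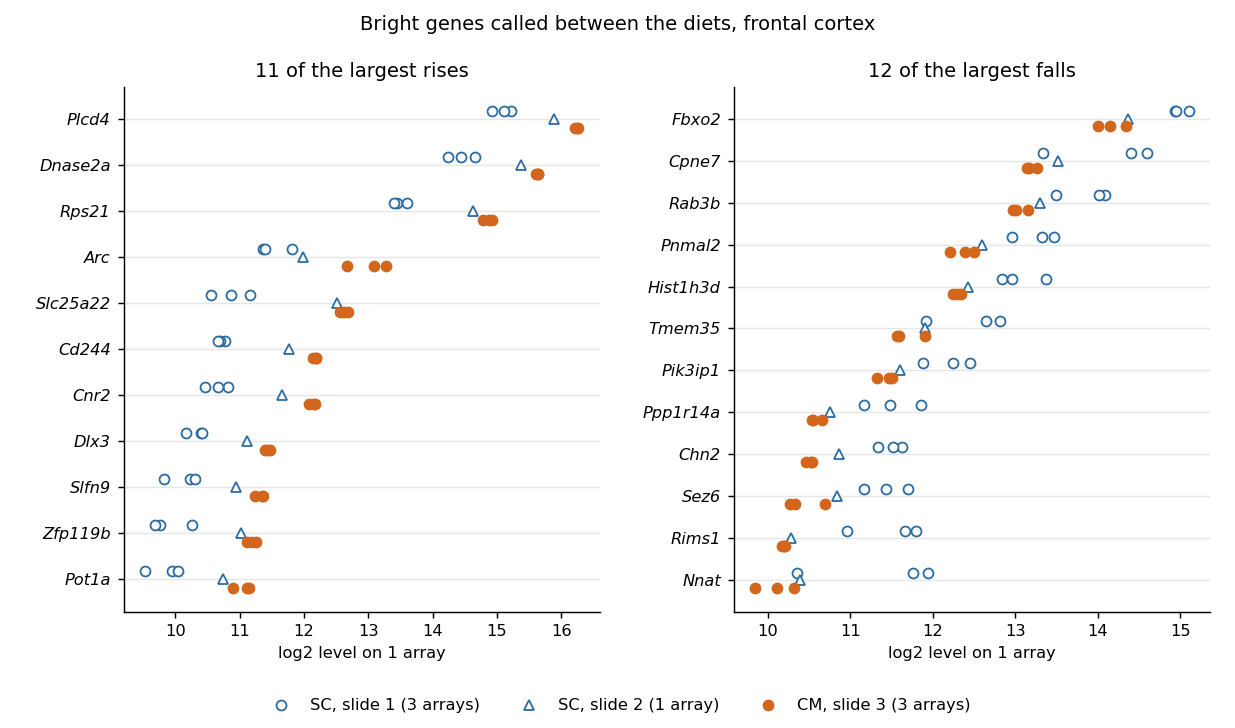
Log2 level of 11 of the 12 largest rises (left) and the 12 largest falls (right) among bright genes whose CM and SC arrays do not overlap, brightest at the top, 1 point per frontal cortex array. Open circles are SC arrays on slide 1, the open triangle is SC mouse 52 on slide 2 and filled circles are CM arrays on slide 3. The triangle lies between the other SC arrays and the CM arrays, or beside the CM arrays, for nearly every gene, with Arc nearest to its own group.

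The 12 largest falls chosen by the same rule were smaller. Bright genes whose arrays overlapped, such as Mag (-0.92) and Cnp (-0.91) of myelin, fell by more than some of them. Fbxo2, which marks glycoproteins for degradation in neurons, read 14.36, 14.94, 14.95 and 15.10 in SC and 13.998, 14.15 and 14.34 in CM (probe at chr4:147540456-147540515). The change was -0.77 ± 0.14 (adjusted p = 0.00045), with SC mouse 52 only just above the highest CM array. Rims1, a scaffold of the presynaptic release site, read 10.28, 11.79, 10.96 and 11.66 in SC and 10.20, 10.16 and 10.21 in CM, a change of -1.07 ± 0.20 (adjusted p = 0.00057). A second Rims1 identifier gave 0.24 (adjusted p = 0.24), so the fall rests on 1 of 2. Sez6, a membrane protein that shapes dendrites and excitatory synapses, read 10.84, 11.70, 11.16 and 11.44 in SC and 10.33, 10.27 and 10.69 in CM. Its change of -0.91 ± 0.15 (adjusted p = 0.0003) was -0.95 with slide as a fixed block, nearly the same size, although not called there. Ppp1r14a, an inhibitor of myosin phosphatase, read 10.76, 11.16, 11.86 and 11.48 in SC and 10.54, 10.65 and 10.54 in CM, a change of -0.88 ± 0.19 (adjusted p = 0.0022) that was -1.16 with slide as a fixed block.

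Rab3b, a small GTPase of synaptic vesicles, changed by -0.68 ± 0.21 (adjusted p = 0.022) and lost its call without SC mouse 54 (-0.57) or SC mouse 58 (-0.51). Cpne7, a calcium-dependent membrane-binding copine, changed by -0.74 ± 0.23 (adjusted p = 0.021), and Nnat, the imprinted gene neuronatin, by -1.06 ± 0.35 (adjusted p = 0.029). In Cpne7 and Nnat, SC mice 52 and 56 read close to the CM arrays and SC mice 54 and 58 far above them. The Nnat values were 10.38, 11.76, 10.35 and 11.94 in SC and 10.11, 9.85 and 10.31 in CM, and its call was lost without SC mouse 54 (-0.84), SC mouse 58 (-0.55), CM mouse 54 (-1.03) or CM mouse 56 (-0.91). Cpne7 lost its call without SC mouse 54 (-0.53), SC mouse 58 (-0.44) or CM mouse 56 (-0.72). The other 5 falls were Chn2, a Rac-inactivating chimaerin (-0.88), the PNMA-family gene Pnmal2 (-0.79), Tmem35 (-0.65), Pik3ip1, an inhibitor of PI3 kinase (-0.64), and the histone gene Hist1h3d (-0.64). Chn2 had 2 other identifiers. Of these, 1 was also called lower (-0.40, adjusted p = 0.02), and 1, above background on 0 of 4 SC arrays, was not called (-0.16). Tmem35 lost its call without SC mouse 58 (-0.42). For all 12, SC mouse 52 was nearer to the CM mean than to the mean of the other SC arrays, and 6 kept their call with slide as a random block. Of the 12, 1 was called lower in the striatum (Rims1, -0.90) and 0 in the thalamic region.

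Lingo1 had the largest DE rise among established genes. It encodes a membrane protein of neurons that joins the Nogo receptor and restrains axon growth and myelination. It read 9.41, 5.48, 6.12 and 5.59 in SC and 9.72, 9.84 and 9.5004 in CM (probe at chr9:56466922-56466981). SC mouse 52 read close to the CM arrays, and the 3 SC arrays on slide 1 lay more than 3 log2 units below. The change was 3.48 ± 0.44 without a slide term (adjusted p = 4.1e-05), 2.80 with slide as a random block (adjusted p = 0.0051) and 0.41 with slide as a fixed block. In the striatum, where the CM arrays lay on slide 1, Lingo1 changed by -2.43 (adjusted p = 0.0063). Ostb, a subunit of a bile acid and steroid transporter, read 6.19, 4.04, 5.12 and 4.10 in SC and 7.27, 8.03 and 6.86 in CM, a change of 2.74 ± 0.45 (adjusted p = 0.00023). Ndfip2, an adaptor of Nedd4-type ubiquitin ligases, read 7.40, 4.14, 4.59 and 4.52 in SC and 7.61, 7.51 and 7.53 in CM, a change of 2.73 ± 0.33 (adjusted p = 3.2e-05). Ostb and Ndfip2 were above background on 1 of 4 SC arrays and on all 3 CM arrays, so most of their SC values are near the detection limit.

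Ly6g6e, a small membrane-anchored protein of the Ly6 family, had the largest DE fall. It read 9.73, 11.66, 9.59 and 10.05 in SC and 8.08, 8.53 and 7.95 in CM (probe at chr17:35215564-35215623), with no CM array above any SC array. The change was -1.95 ± 0.36 (adjusted p = 0.00058), -2.01 with slide as a random block (adjusted p = 0.02) and -2.30 with slide as a fixed block, and it was 0.04 and -0.03 in the striatum and the thalamic region. SC mouse 52 lay within the range of the other SC arrays. Stac, an adaptor of muscle-type calcium channels, read 6.57, 7.71, 6.17 and 7.93 in SC and 5.87, 5.70 and 5.61 in CM, a change of -1.32 ± 0.35 (adjusted p = 0.0088) that was not called without SC mouse 54 (-1.09) or SC mouse 58 (-0.80). Nmbr, the neuromedin B receptor, read 6.69, 7.80, 5.77 and 7.14 in SC and 5.22, 5.34 and 5.73 in CM, a change of -1.30 ± 0.33 (adjusted p = 0.0068) that was not called without SC mouse 58 (-0.89).

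**Figure D2:**
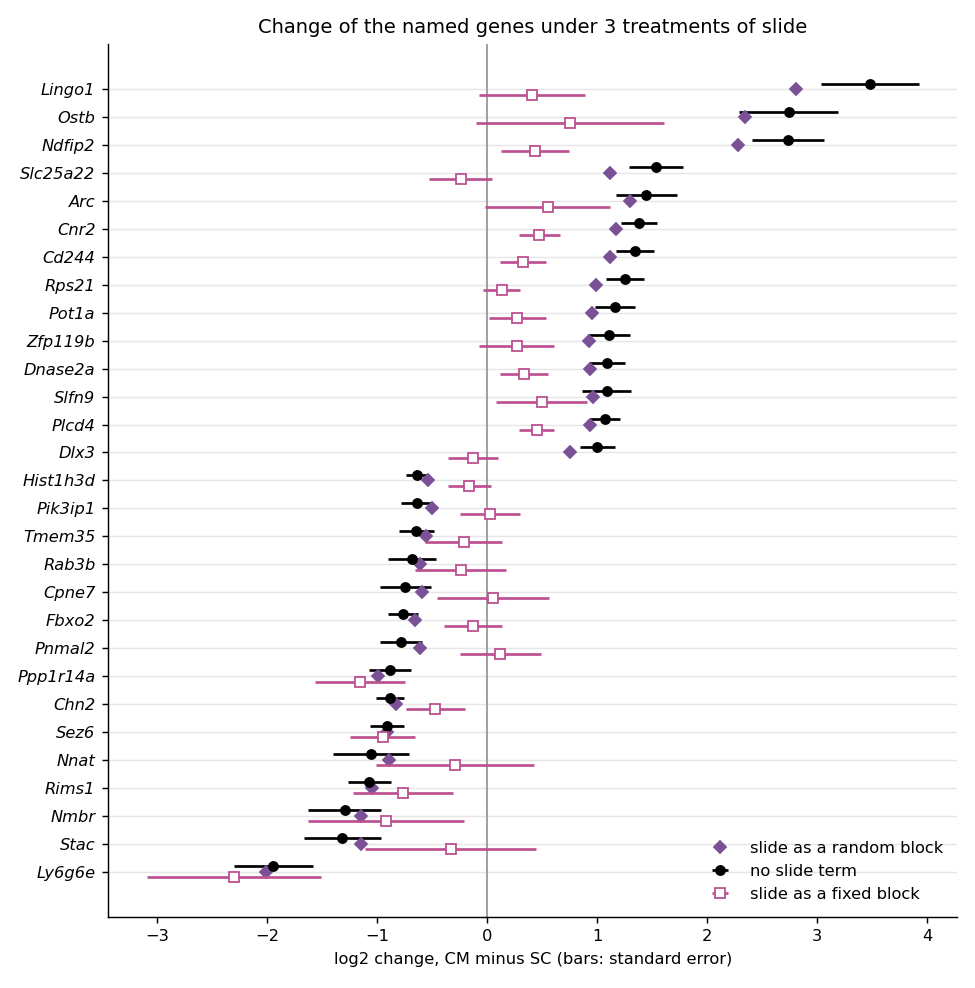
Log2 change (CM minus SC) of the bright genes of the text and the 6 genes with the largest DE changes, without a slide term (filled circles with standard errors), with slide as a random block (diamonds) and with slide as a fixed block (open squares with standard errors). Lingo1 moves from 3.48 to 0.41, Slc25a22 crosses 0, and Ly6g6e and Sez6 stay at about the same value.

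Of 19 immediate early genes measured, 4 rose and 1 fell (21.1% and 5.26%, against 15.4% and 13.2% of all identifiers). Arc led them. Egr1, a zinc finger transcription factor induced by neuronal activity, read 13.16, 12.15, 12.90 and 12.08 in SC and 13.59, 13.37 and 13.09 in CM, and the CM values overlapped with SC mouse 52. Its change was 0.83 ± 0.23 (adjusted p = 0.011), and it was not called without SC mouse 54 (0.69) or SC mouse 58 (0.56). Fos, which pairs with Jun in the AP-1 factor, read 7.84, 7.26, 7.499 and 7.596 in SC and 8.35, 8.02 and 7.67 in CM, a change of 0.52 ± 0.19 (adjusted p = 0.047). Dusp1, a phosphatase that switches off MAP kinases, read 8.87, 8.51, 8.62 and 8.86 in SC and 9.14, 9.25 and 9.01 in CM, a change of 0.46 ± 0.15 (adjusted p = 0.023). Jun, the partner of Fos, fell. It read 12.65, 13.57, 13.15 and 13.49 in SC and 12.70, 12.77 and 12.997 in CM, a change of -0.47 ± 0.12 (adjusted p = 0.0061). The bright members Jund (-0.18, adjusted p = 0.31) and Nr4a1 (0.21, adjusted p = 0.47) were not called. The list held 1 rise and 0 falls without SC mouse 54, and with slide as a random block Arc alone was called. Fos lost its call without SC mouse 54, 56 or 58 or CM mouse 54 or 56 (changes of 0.33 to 0.55), and Dusp1 without SC mouse 54 or 56 or CM mouse 54 or 56 (0.38 to 0.45). Jun lost its call without SC mouse 54 (-0.36).

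Activity reaches many of these genes through CREB, which binds the cAMP response element in their promoters. The 250 bases before the start of Fos, Dusp1 and Jun are printed as examples of promoters with and without the element, of 2 genes that rose and 1 that fell. Capitals mark the element's core TGACG and the whole element TGACGTCA, on the printed strand. They are RefSeq sequences of build GRCm38.p6, at chr12:85473640-85473889 (plus strand), chr17:26508473-26508722 (minus strand) and chr4:95052223-95052472 (minus strand).
Fos: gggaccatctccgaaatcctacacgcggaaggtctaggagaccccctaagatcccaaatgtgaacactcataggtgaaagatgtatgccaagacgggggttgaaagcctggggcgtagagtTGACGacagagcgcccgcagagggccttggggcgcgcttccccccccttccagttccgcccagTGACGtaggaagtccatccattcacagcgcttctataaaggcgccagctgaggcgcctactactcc
Dusp1: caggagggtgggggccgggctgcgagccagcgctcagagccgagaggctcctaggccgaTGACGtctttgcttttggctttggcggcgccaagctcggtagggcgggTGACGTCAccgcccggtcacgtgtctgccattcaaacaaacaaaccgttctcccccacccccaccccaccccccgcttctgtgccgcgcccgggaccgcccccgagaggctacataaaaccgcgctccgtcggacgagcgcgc
Jun: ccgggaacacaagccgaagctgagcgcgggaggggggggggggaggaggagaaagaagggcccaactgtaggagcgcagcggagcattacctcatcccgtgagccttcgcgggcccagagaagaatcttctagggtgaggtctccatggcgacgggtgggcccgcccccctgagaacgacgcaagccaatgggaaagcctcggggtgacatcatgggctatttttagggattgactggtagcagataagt
The core was found on either strand 2 times before Fos, 3 times before Dusp1 and 0 times before Jun, and the whole element, which holds the core on both strands, 1 time before Dusp1. Of 32851 promoters of this length, 17.8% hold the core and 1.55% the whole element. Of the 19 immediate early genes 15 have a promoter entry, 12 of them with the core and 2 with the whole element. Genes with several promoters were counted if any of these held it, while the percentages above are per promoter. Nr4a1, which was not called, has 4 cores and Jund, also not called, has 0, and no relation to the direction of change is read from these counts. These are matches of letters and not measured binding sites.

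The shares of synapse genes called lay near or below those of all identifiers, 15.4% higher and 13.2% lower. Of 22 genes of synaptic vesicles and release, 1 rose and 1 fell (4.55% each way). The brightest did not pass the test, such as Cplx2, which clamps vesicle fusion (-0.23, adjusted p = 0.13), the calcium sensor Syt1 (-0.15, adjusted p = 0.41) and the vesicle protein Syn1 (-0.11, adjusted p = 0.53). Rims1 was the fall, and Synj1, which uncoats vesicles during recycling, the rise (0.32 ± 0.09, adjusted p = 0.011), with a second identifier at 0.02. Of 17 postsynaptic scaffold genes 2 rose, Arc and Shank2 (0.46 ± 0.16, adjusted p = 0.035), and 1 fell (11.8% and 5.88%). Shank2 lost its call without any 1 array other than SC mouse 52 (0.45 to 0.46). Synj1 was not called without SC mouse 54 (0.26) or SC mouse 58 (0.23). A second Shank2 identifier gave -0.02. Among 15 ionotropic glutamate receptor genes Gria2, the AMPA subunit that blocks calcium entry, rose from 10.75, 10.57, 10.58 and 10.13 in SC to 11.03, 11.05 and 10.89 in CM (0.53 ± 0.13, adjusted p = 0.0039), with a second identifier at 0.10 that was not called. The NMDA subunit Grin2d (-0.63, adjusted p = 0.029) and the kainate subunit Grik2 (-0.40, adjusted p = 0.0087) fell, and Grin1, the obligate NMDA subunit, was at 0.02 (adjusted p = 0.94). These ionotropic calls are 6.67% higher and 13.3% lower. Grin2d was not called without SC mouse 54 or 58 or CM mouse 54 or 56 (-0.57 to -0.64), nor Grik2 without SC mouse 56 (-0.30). Limma called 0 of 7 metabotropic glutamate receptor genes and 0 of 12 GABA-A subunit genes, of which 1 and 1 had an unadjusted p under 0.05. Grm5 changed by -0.11 (adjusted p = 0.52).

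Of 17 markers of pyramidal neurons 0 were higher and 1 was lower. The calmodulin-binding Nrgn changed by 0.23 (adjusted p = 0.48) and the kinase Camk2a by 0.40 (adjusted p = 0.18), and the deep-layer factor Foxp2 fell (-0.83 ± 0.19, adjusted p = 0.003). Of 16 interneuron markers 3 fell and 0 rose (18.8% lower, against 13.2% of all identifiers). They were Gad2, which makes GABA (-0.60, adjusted p = 0.039), Slc32a1, which loads GABA into vesicles (-0.57, adjusted p = 0.0048), and the extracellular protein Reln (-0.68, adjusted p = 0.0099). Gad1, the other GABA-making enzyme, read 12.94, 14.28, 12.86 and 12.94 in SC and 12.70, 12.76 and 12.68 in CM and was not called (-0.47, adjusted p = 0.088). Its highest value was on the array of SC mouse 54, on which the olfactory bulb markers were also high. Members of that list are Doc2g (12.88 there, 7.75 to 8.51 elsewhere) and Cdhr1 (12.54 there, 6.10 to 9.07 elsewhere). Without that array, or without CM mouse 56, 1 interneuron marker was lower, and without SC mouse 52 there were 5. Without SC mouse 54, Gad2 (-0.50) and Reln (-0.48) were not called. Gad2 was also lost without SC mouse 58 (-0.51), CM mouse 54 (-0.50) or CM mouse 56 (-0.49), and Reln without CM mouse 56 (-0.51). Cdhr1, the 1 olfactory bulb marker called lower (-2.29, adjusted p = 0.013), was not called without SC mouse 58 (-1.47), and the list had 5 falls without SC mouse 52 and 4 without SC mouse 56. The bright peptides Cck (0.19, adjusted p = 0.72) and Sst (0.12, adjusted p = 0.72) were not called. The part of neighbouring tissue in these values was not tested.

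Among genes of reward signalling, 2 of 13 dopamine and monoamine genes fell and 0 rose (15.4% lower, near the 13.2% of all identifiers). Drd2, the dopamine receptor of the indirect striatal pathway, read 5.49, 7.67, 8.11 and 7.604 in SC and 5.15, 5.57 and 7.56 in CM (-1.58 ± 0.51, adjusted p = 0.026). The 4 high arrays, SC mice 54, 56 and 58 and CM mouse 58, were those on which the striatum markers as a whole were high. The striatal proteins Ppp1r1b (-1.08, adjusted p = 0.14), Rgs9 (-1.38, adjusted p = 0.081) and Tac1 (-0.93, adjusted p = 0.058) had the same high arrays and were not called. The striatum list had 1 fall of 11 and 10 falls without CM mouse 58 or 6 without SC mouse 52, and its part in the dopamine values was not tested. Drd2 lost its call without SC mouse 54 or 56 or CM mouse 54 or 56 (-0.999 to -1.51). Of 11 serotonin receptor genes Htr2c (-0.64, adjusted p = 0.018) and Htr4 (-1.07, adjusted p = 0.022, above background on 2 of 4 SC arrays) fell, and the cortical receptor Htr2a did not pass (0.17, adjusted p = 0.64). These 2 of 11 are 18.2%, against the same 13.2%. Both falls were lost without SC mouse 58 (-0.38 and -0.71) or CM mouse 54 (-0.55 and -0.83), and that of Htr2c also without CM mouse 56 (-0.49). Limma called 0 of 7 opioid genes, of which 0 had an unadjusted p under 0.05 (Pdyn -0.21, adjusted p = 0.59). A second, dimmer Pdyn identifier gave -0.68 (adjusted p = 0.055) and was not called. Of 9 endocannabinoid genes Dagla, which makes 2-arachidonoylglycerol, rose (0.71 ± 0.19, adjusted p = 0.0093), while the neuronal receptor Cnr1 was not called (0.05, adjusted p = 0.89). The second cannabinoid receptor, Cnr2, is among the bright rises above and was not in this list. Dagla was not called without SC mouse 54 (0.58) or SC mouse 58 (0.55).

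Of 17 receptors for appetite signals 2 rose and 3 fell (11.8% and 17.6%), near the 15.4% and 13.2% of all identifiers. Lepr, the leptin receptor, read 9.94, 9.14, 9.004 and 9.39 in SC and 10.10, 10.29 and 10.05 in CM, with SC mouse 52 next to the CM arrays (0.91 ± 0.16, adjusted p = 0.00032). Other Lepr identifiers gave 0.02 and 0.22 and were not called. Glp1r, the receptor of the satiety hormone GLP-1, was dim and rose by 0.77 (adjusted p = 0.011), a change of -0.08 with slide as a fixed block. Mchr1, the receptor of the feeding peptide MCH, read 7.5015, 8.02, 8.00 and 8.09 in SC and 6.81, 7.10 and 7.41 in CM (-0.88 ± 0.17, adjusted p = 0.00071), with no overlap. Gipr, the receptor of the gut hormone GIP (-0.46, adjusted p = 0.0085), and Insr, the insulin receptor (-0.25, adjusted p = 0.0057), fell. Lepr and Mchr1 kept their calls with slide as a random block (0.80, adjusted p = 0.019, and -0.81, adjusted p = 0.033). Glp1r lost its call without SC mouse 56 (0.57) and Gipr without SC mouse 54 (-0.29).

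Of 14 neurotrophin and growth factor genes 2 rose and 1 fell (14.3% and 7.14%, against 15.4% and 13.2% of all identifiers). Igf1, insulin-like growth factor 1, read 9.75, 8.82, 8.95 and 9.15 in SC and 9.99, 10.21 and 9.95 in CM (0.99 ± 0.16, adjusted p = 0.00021), but -0.25 with slide as a fixed block and -0.07 at a second identifier. Gdnf, the glial factor for dopamine neurons, fell (-1.45 ± 0.46, adjusted p = 0.023) and was above background on 3 SC arrays and 1 CM array. Gdnf was not called without SC mouse 54 or 58 or CM mouse 54 or 56 (-0.97 to -1.30). Bdnf, the cortical neurotrophin induced by activity, was at 0.02 (adjusted p = 0.98), and its receptor Ntrk2 at -0.22 (adjusted p = 0.063). In the Nogo receptor complex, 1 of 10 genes rose (Lingo1) and 1 fell (Mag), and the ligand Rtn4, Nogo itself, was not called (-0.15, adjusted p = 0.23).

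Of the 48 lists described, myelin genes had the largest share of falls. Of 18 measured, 9 fell and 1 rose (50% lower, against 13.2% of all identifiers), and the median log2 change was -0.53, against -0.04 over all identifiers. Mag, an adhesion protein of the inner myelin layer, read 13.12, 14.01, 14.41 and 14.05 in SC and 12.88, 13.34 and 13.18 in CM (-0.92 ± 0.17, adjusted p = 0.00078). Cnp, an enzyme of the myelin membrane, read 12.21, 13.42, 13.26 and 13.29 in SC and 12.09, 12.37 and 12.31 in CM (-0.91 ± 0.17, adjusted p = 0.00054). In both, the array of SC mouse 52 lay among the CM arrays and the 3 on slide 1 above them. Mobp, a protein of compact myelin, changed by -0.90 ± 0.22 (adjusted p = 0.0045), the iron carrier Trf by -0.85 ± 0.18 (adjusted p = 0.002) and the myelin membrane protein Pllp by -0.85 ± 0.17 (adjusted p = 0.001). Aspa, which splits N-acetylaspartate (-0.66), the lipid enzymes Ugt8a (-0.65) and Fa2h (-0.59) and the lineage factor Sox10 (-0.59) fell less. Mal, a proteolipid of compact myelin, read 13.51, 14.22, 14.41 and 13.88 in SC and 13.59, 13.96 and 13.81 in CM and was not called (-0.31, adjusted p = 0.19).

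Probes of myelin basic protein disagreed. The brightest Mbp identifier rose (0.42 ± 0.15, adjusted p = 0.043) and a second fell (-0.41, adjusted p = 0.0088). The mean log2 level of the 18 genes was 11.50, 11.93, 12.30 and 11.89 in SC and 11.39, 11.66 and 11.56 in CM. The 3 SC arrays on slide 1 were above all CM arrays and SC mouse 52 was within their range. Without SC mouse 52 the falls numbered 12, and without SC mouse 56 they numbered 6, with Aspa (-0.44), Ugt8a (-0.40) and Fa2h (-0.31) lost. Fa2h was also lost without SC mouse 54 or CM mouse 54 or 56 (-0.53 to -0.64), and the rise of Mbp without SC mouse 54 or 58 or CM mouse 54 or 56 (0.17 to 0.41). Mag, Cnp, Pllp and Sox10 were called with slide as a random block, which made 4 in all. The median with slide as a fixed block was -0.38. With 75th percentile scaling of the processed signal 14 fell and 0 rose, and without array weights 4 fell and 0 rose. In these bulk samples fewer oligodendrocytes and less myelin RNA per cell cannot be told apart. Myelin genes were also brighter in the neighbouring striatum, where their mean was 12.60 to 13.14. The 3 SC arrays with the higher myelin means (mice 54, 56 and 58) had striatum marker means of 10.78 to 11.36, against 9.32 to 9.65 in SC mouse 52 and CM mice 54 and 56, while CM mouse 58 had 11.29 with a myelin mean of 11.56. The part of striatal tissue in the myelin values was not tested.

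**Figure D3:**
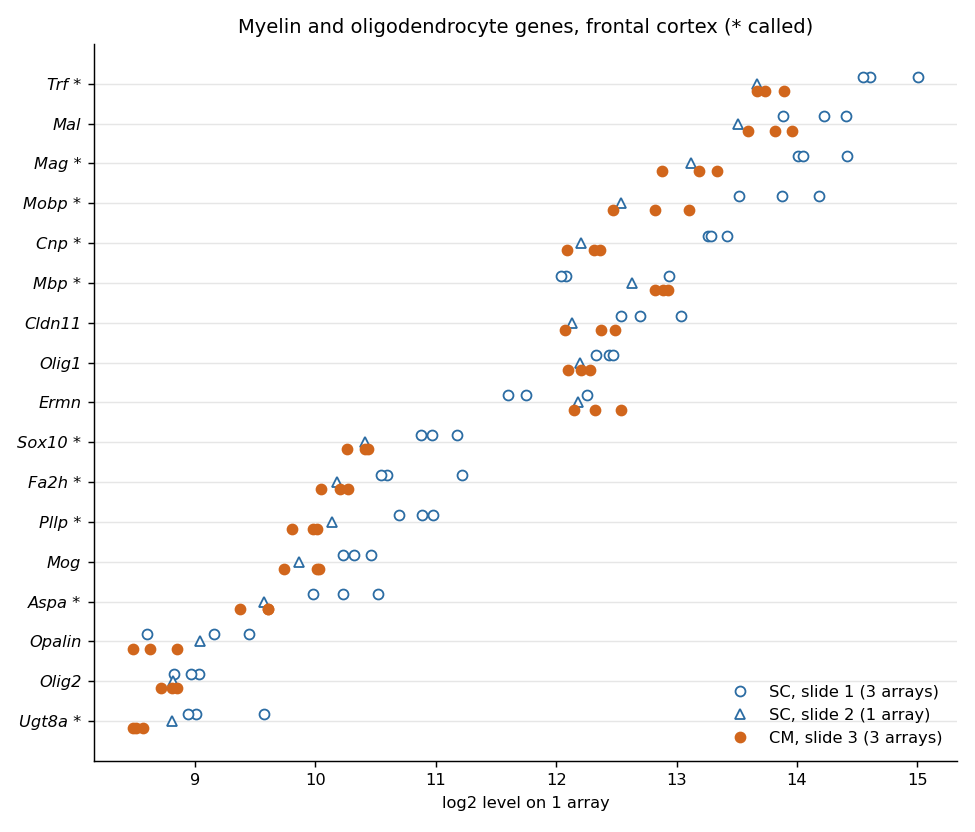
Log2 level of 17 of the 18 myelin and oligodendrocyte genes on each frontal cortex array, brightest at the top, with an asterisk at the 10 called genes. Open circles are SC arrays on slide 1, the open triangle is SC mouse 52 on slide 2 and filled circles are CM arrays on slide 3. For most called genes the open circles lie to the right of the rest, and for Mbp to the left in 2 of 3.

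Other glia and vessels gave fewer calls than the myelin list. Of 15 astrocyte genes 3 fell and 0 rose (20% lower, against 13.2% of all identifiers and 14.7% of genes with an established symbol). Gfap, the intermediate filament of reactive astrocytes, read 9.08, 10.08, 9.47 and 10.57 in SC and 8.94, 8.88 and 9.14 in CM (-0.90 ± 0.33, adjusted p = 0.045), with a second identifier at -1.09 (adjusted p = 0.018). The lipid carrier Apoe (-0.33, adjusted p = 0.042) and the folate enzyme Aldh1l1 (-0.33, adjusted p = 0.0095) fell, while Aldoc, the brain aldolase, read 17.997 to 18.18 on the 7 arrays and was not called (0.05, adjusted p = 0.67). Without SC mouse 54, 0 of the astrocyte genes were called (Aldh1l1 -0.29, Gfap -0.81, Apoe -0.27), and Gfap and Apoe were also lost without SC mouse 58 (-0.53 and -0.17), CM mouse 54 (-0.85 and -0.30) or CM mouse 56 (-0.83 and -0.31). Limma called 0 of 15 microglia genes, of which 1 had an unadjusted p under 0.05, and the microglial lectin Siglech read 13.66 to 13.80 on the 7 arrays (adjusted p = 0.97). Of 15 endothelial and mural genes the adhesion molecule Pecam1 rose (0.52 ± 0.11, adjusted p = 0.0019), and the tight junction gene Cldn5 was not called (-0.27, adjusted p = 0.14). The endothelial and mural list thus had 6.67% higher, against 15.4% of all identifiers. Limma called 0 of 6 red blood cell genes (Hba-a2 0.05, adjusted p = 0.90) and 0 of 7 choroid plexus genes, of which 0 and 1 had an unadjusted p under 0.05. The choroid plexus gene Ttr ranged from 6.85 to 11.91 within CM alone and changed by -1.19 ± 1.71.

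Energy metabolism gave small changes, more of them falls, as was also so among all genes with an established symbol. Of 18 citric acid cycle genes 3 fell and 1 rose (16.7% and 5.56%, against 13.2% and 15.4% of all identifiers). Among genes with an established symbol, 14.7% fell and 9.74% rose. Cs, citrate synthase, read 15.31, 15.39, 15.34 and 15.35 in SC and 15.10, 15.16 and 15.07 in CM, a separation of small size (-0.23 ± 0.08, adjusted p = 0.034). Dlst, of the 2-oxoglutarate complex, fell by 0.24 (adjusted p = 0.049), and Mdh1, cytosolic malate dehydrogenase, rose (0.33, adjusted p = 0.012). Of the 18, 0 were called in either direction without SC mouse 54, and without SC mouse 58 or CM mouse 58, 0 were lower. Over the omissions that ended a call, Cs was at -0.22 to -0.23, Dlst at -0.22 to -0.26 and Mdh1 at 0.30. With 75th percentile scaling of the processed signal 9 citric acid cycle genes fell and 0 rose, and with frontal cortex arrays only or without array weights 0 were called. In glycolysis, 1 of 16 rose and 1 fell. Hk1, which traps glucose in the cell, rose by 0.28 (adjusted p = 0.0035), but another Hk1 identifier fell (-0.46, adjusted p = 0.028). Pkm2, pyruvate kinase, fell by 0.38 (adjusted p = 0.0088), and Gapdh was not called (-0.15, adjusted p = 0.089). In that same scaling 4 glycolysis genes fell and 0 rose. The respiratory chain had 16 falls and 5 rises among 82 subunits (19.5% and 6.10%), and its brightest, Cox6a1, was not called (-0.05, adjusted p = 0.68). Falls numbered 9 and rises 3 without SC mouse 54, and without CM mouse 54, 9 fell and 5 rose.

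Lipid genes gave 0 rises with all arrays in the fit. Of 19 genes of fatty acid synthesis and oxidation 4 fell: Ppargc1a, the coactivator that raises mitochondrial mass (-0.46, adjusted p = 0.042), Hadhb of beta oxidation (-0.38, adjusted p = 0.013), the brain carnitine palmitoyltransferase Cpt1c (-0.28, adjusted p = 0.018) and Scd1, which desaturates fatty acids (-0.28, adjusted p = 0.043). They numbered 1 without SC mouse 54, SC mouse 58 or CM mouse 54 and 2 without CM mouse 58. Of 22 cholesterol synthesis genes 3 fell: Lss (-0.44, adjusted p = 0.011), Mvk (-0.31, adjusted p = 0.033) and the master factor Srebf2 (-0.36, adjusted p = 0.044), and the count was 1 without SC mouse 54, SC mouse 58 or CM mouse 54. Over the omissions that ended a call, Ppargc1a was at -0.33 to -0.46, Hadhb at -0.30, Cpt1c at -0.24 to -0.25, Scd1 at -0.24 to -0.29, Mvk at -0.22 to -0.31 and Srebf2 at -0.30 to -0.41. These shares, 21.1% and 13.6%, stand beside 13.2% of all identifiers and 14.7% of genes with an established symbol.

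Shares called higher and lower were 14.3% and 9.52% in insulin and mTOR signalling and 5.88% and 11.8% in leptin feedback and inflammation. They were 0% and 10.5% for endoplasmic reticulum stress and 18.2% and 0% for heat shock genes. Clock genes had 5.88% each way and glucocorticoid-responsive genes 0% and 7.69%. All identifiers had 15.4% and 13.2%. In insulin and mTOR signalling 3 of 21 genes rose, the mTOR activator Rheb (0.47, adjusted p = 0.0017), the mTORC1 scaffold Rptor (0.25, adjusted p = 0.014) and the brake Tsc1 (0.20, adjusted p = 0.031). The receptor Insr and the factor Foxo3 fell (Foxo3 -0.44, adjusted p = 0.029, with a second identifier at 0.51, adjusted p = 0.055), and the kinase Akt1 was at 0.01 (adjusted p = 0.96). Rptor lost its call without SC mouse 54 or 56 or CM mouse 56 (0.20 to 0.23), Tsc1 without SC mouse 54 or 58 or CM mouse 56 or 58 (0.17 to 0.19) and Foxo3 without SC mouse 58 (-0.37) or CM mouse 56 (-0.40). Of 17 genes of leptin feedback and inflammation, Socs1 rose (0.29, adjusted p = 0.03), the phosphatase Ptpn1, which acts on the insulin and leptin receptors, fell (-0.40, adjusted p = 0.0048), and so did the dim cytokine Il1b (-0.43, adjusted p = 0.031). Socs1 was not called without SC mouse 54 or 56 or CM mouse 54 or 56 (0.24 to 0.28), nor Il1b without SC mouse 52 or 56 or CM mouse 56 or 58 (-0.35 to -0.45). Stat3, the leptin signal transducer, was at -0.09 (adjusted p = 0.46). Among stress genes, the endoplasmic reticulum chaperone Hspa5 was not called (0.18, adjusted p = 0.27), while Trib3 (-0.60, adjusted p = 0.017) and Ddit3 (-0.31, adjusted p = 0.025) fell, 2 of 19. Trib3 lost its call without SC mouse 56 or CM mouse 54 or 56 (-0.32 to -0.53) and Ddit3 without SC mouse 54 or 56 or CM mouse 56 (-0.25 to -0.31). Of 11 heat shock genes the mitochondrial chaperonin Hspe1 (0.52, adjusted p = 0.00085) and the factor Hsf1 (0.27, adjusted p = 0.0083) rose, the latter not without SC mouse 54 (0.22). The clock list gave 1 rise and 1 fall of 17, the repressor Nr1d2 (0.53, adjusted p = 0.0073, with a second identifier at -0.02) and Bhlhe41 (-0.59, adjusted p = 0.0037), and Nr1d2 was not called without SC mouse 58 (0.39). Of 13 glucocorticoid-responsive genes the metallothionein Mt2 fell (-0.42, adjusted p = 0.02), but not without SC mouse 54 or 58 or CM mouse 54 (-0.35 to -0.37).

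Of 18 antioxidant genes 4 fell and 1 rose (22.2% and 5.56%, against 13.2% and 15.4% of all identifiers). Among genes with an established symbol the shares were 14.7% and 9.74%. Nqo1, a quinone reductase, read 6.004, 6.91, 6.57 and 7.04 in SC and 5.75, 5.95 and 5.96 in CM (-0.81 ± 0.21, adjusted p = 0.006), and was at -0.01 with slide as a fixed block. Gpx1 (-0.29, adjusted p = 0.037), the mitochondrial Prdx3 (-0.26, adjusted p = 0.011) and Sod1 (-0.22, adjusted p = 0.02) fell by less, and thioredoxin, Txn1, rose (0.42, adjusted p = 0.0032). Without SC mouse 54 the falls numbered 2, with Sod1 (-0.22) and Gpx1 (-0.29) lost. Gpx1 was also lost without SC mouse 58 or CM mouse 54 or 56 (-0.19 to -0.25). Calm3, 1 of the calmodulin genes, rose (14.10, 13.79, 13.83 and 13.89 in SC, 14.28, 14.26 and 14.20 in CM, 0.38 ± 0.08, adjusted p = 0.0014), the 1 call among 20 calcium signalling genes. There were 4 rises in this list without SC mouse 52 or SC mouse 56 or with a normexp offset of 50, 3 with the mean spot signal and 2 without CM mouse 54. In the neuronal cytoskeleton, 17 genes, the neurofilament Nefl fell (-0.43, adjusted p = 0.0082) and the collapsin response mediator Dpysl2 rose (0.30, adjusted p = 0.02), and Actb was not called (-0.05, adjusted p = 0.72). Dpysl2 lost its call without SC mouse 54 or 58 or CM mouse 54 (0.20 to 0.25). Of 22 potassium channel genes 4 rose and 3 fell (18.2% and 13.6%), and of 40 sodium and calcium channel genes 4 rose and 4 fell (10% each way). Among potassium channels the falls numbered 0 without SC mouse 54 and 1 without SC mouse 58 or CM mouse 54.

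Genes of chromatin and protein turnover gave more falls than rises. Of 47 histone cluster genes 22 fell and 3 rose (46.8% lower, against 13.2% of all identifiers), with a median log2 change of -0.42. Hist2h2ac read 14.62, 15.20, 15.09 and 15.21 in SC and 14.59, 14.69 and 14.71 in CM (-0.42 ± 0.09, adjusted p = 0.0012), and Hist2h2aa2 fell by 0.29 (adjusted p = 0.0059). SC mouse 52 lay within the CM range for Hist2h2ac and just below it for Hist2h2aa2. The clustered histone genes are near-identical copies, so their probes share signal and do not count as separate genes. Of the 47, 3 were lower with slide as a random block, and their median change with slide as a fixed block was -0.07. Of 19 DNA methylation and histone enzymes 5 fell and 0 rose (26.3% lower): the demethylase Kdm6b (-0.46, adjusted p = 0.0042), Tet3 (-0.28, adjusted p = 0.024), Dnmt3b (-0.26, adjusted p = 0.015), Hdac1 (-0.24, adjusted p = 0.041) and the acetyltransferase Kat2a (-0.23, adjusted p = 0.047). Without SC mouse 54, 1 of them was called, and without any 1 of the CM mice, 3. Over the omissions that ended a call, Tet3 was at -0.23, Dnmt3b at -0.20, Hdac1 at -0.17 to -0.24 and Kat2a at -0.16 to -0.25. Of 81 cytosolic ribosomal protein genes 25 fell and 3 rose (30.9% and 3.70%, against 13.2% and 15.4% of all identifiers). The falls numbered 7 without SC mouse 54, 13 without CM mouse 54, 15 without CM mouse 56 and 16 without SC mouse 58, and 3 with frontal cortex arrays only, 2 without array weights and 1 with slide as a random block. The bright Rps14 fell by 0.24 (adjusted p = 0.034) and was not called without SC mouse 54, 56 or 58 or CM mouse 54 (-0.20 to -0.26), and Rpl37 did not pass (-0.18, adjusted p = 0.08), beside the DE rise of Rps21. The median log2 change of the 81 ribosomal genes was -0.12 without a slide term and 0.04 with slide as a fixed block. Ribosomal protein genes have many processed pseudogenes whose transcripts the probes may share. Of 37 proteasome subunit genes 8 fell and 0 rose (21.6%). Psmd3 of the regulatory lid read 14.58, 14.88, 14.84 and 14.83 in SC and 14.29, 14.31 and 14.75 in CM (-0.39, adjusted p = 0.015), and Psmb6 of the core did not pass (-0.14, adjusted p = 0.13). The proteasome falls numbered 4 without CM mouse 54 and 5 without SC mouse 54 or CM mouse 56, and Psmd3 was lost in all 3 cases (-0.28 to -0.37). With frontal cortex arrays only and without array weights the histone falls numbered 9 and 9, the proteasome falls 3 and 1, and the falls among chromatin enzymes 0 and 0.

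**Figure D4:**
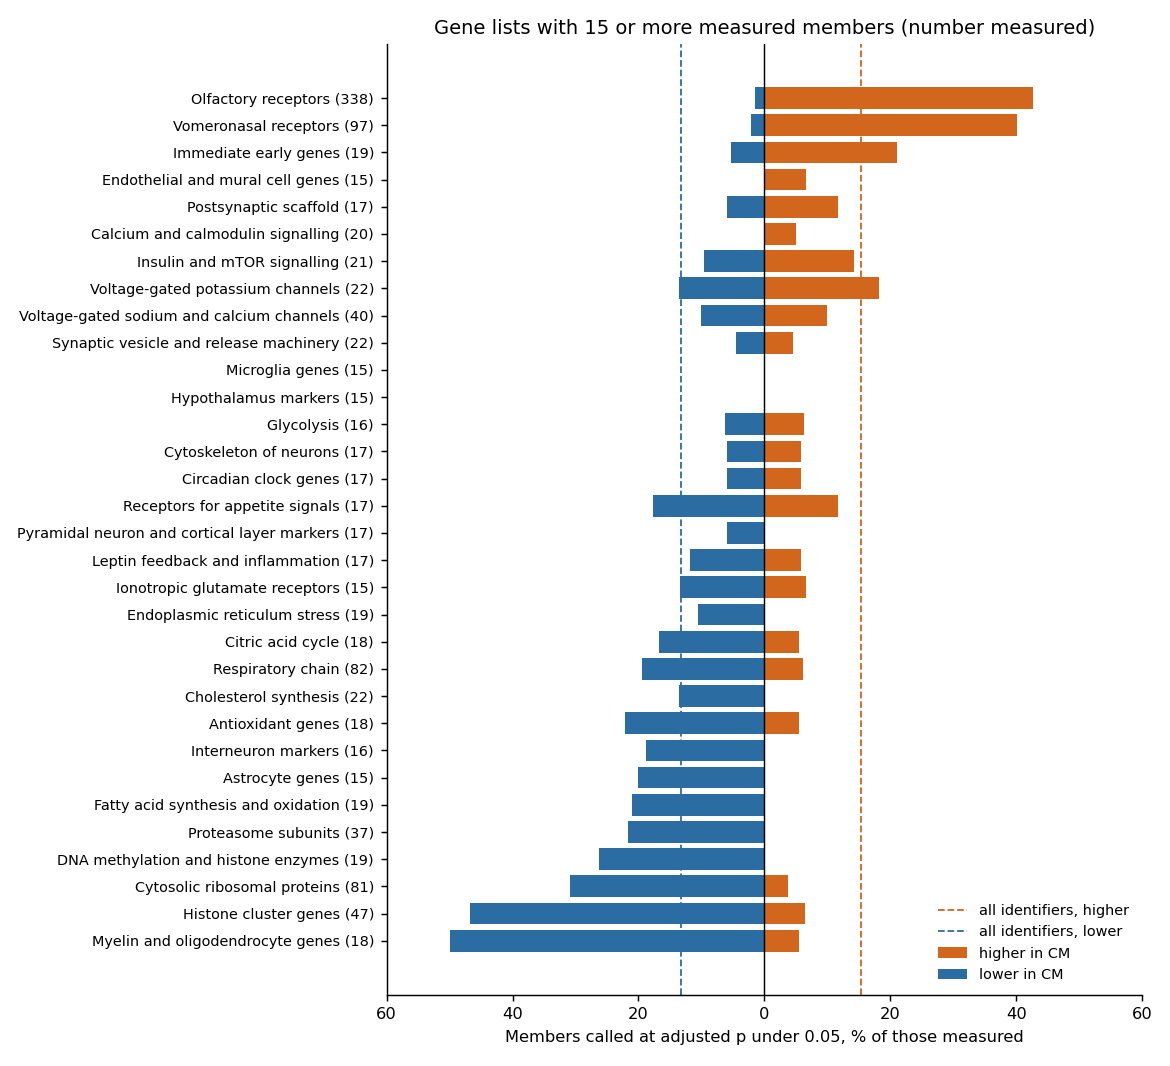
Share of measured members called higher (right) and lower (left) in CM for the 32 gene lists with 15 or more measured members, in % at an adjusted p under 0.05, with the number measured in brackets. Dashed lines mark 15.4% higher and 13.2% lower over all identifiers; the first is passed by most in the olfactory (42.6%) and vomeronasal (40.2%) receptors and also by the immediate early genes and potassium channels, and the second by most in the myelin (50%), histone (46.8%) and ribosomal (30.9%) lists, among others.

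Chemoreceptor genes were called higher more often than the 15.4% of all identifiers, although at least as many members were not called. Of 338 olfactory receptor genes 144 were called higher and 5 lower (42.6% and 1.48%), of 97 vomeronasal receptor genes 39 and 2 (40.2% and 2.06%) and of 12 taste receptor genes 6 and 0 (50% higher), with 49, 10 and 5 DE rises. Most were dim: 78, 30 and 4 of them were above background on all 7 arrays. Olfr544, the brightest olfactory receptor, read 11.81, 11.60, 11.62 and 11.85 in SC and 12.41, 12.28 and 12.29 in CM (0.62 ± 0.11, adjusted p = 0.00055). Olfr170 read 6.25, 5.79, 5.86 and 6.12 in SC and 7.66, 8.04 and 7.54 in CM (1.82 ± 0.25, adjusted p = 5.6e-05). Tas1r3, the subunit shared by the sweet and umami receptors, read 7.76, 6.96, 6.995 and 7.29 in SC and 8.32, 8.42 and 8.41 in CM (1.23 ± 0.14, adjusted p = 2.6e-05), and Vmn1r195 rose by 1.54 (adjusted p = 2.7e-05). The bitter receptors Tas2r109 and Tas2r113 (1.17 and 1.30) and the receptors Olfr1466 (1.30) and Vmn1r65 (1.40) also rose. SC mouse 52 read above all CM arrays in the first 3 of these and within their range in Vmn1r65, which was not called without SC mouse 54 (1.23).

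The mean level of the olfactory receptor family followed slide on every array of the series. It was 5.03 to 5.09 on slide 1, 5.26 to 5.36 on slide 2 and 5.41 to 5.61 on slide 3, with no overlap between slides, whatever the tissue or diet. In the frontal cortex it was 5.36, 5.04, 5.05 and 5.09 in SC and 5.59, 5.61 and 5.51 in CM. The vomeronasal and taste receptor means were likewise lowest on slide 1, at 5.19 to 5.32 and 5.46 to 5.72. The median change of the olfactory receptors was 0.42 without a slide term and 0.03 with slide as a fixed block. A random slide block left 42 of them higher and 1 lower, 11 vomeronasal receptors higher and 3 taste receptors higher. With 75th percentile scaling of the processed signal 218 olfactory and 60 vomeronasal receptors were higher. Probes of such families can share sequence, so members are not independent. Without CM mouse 56, 24 vomeronasal receptors were higher.

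**Figure D5:**
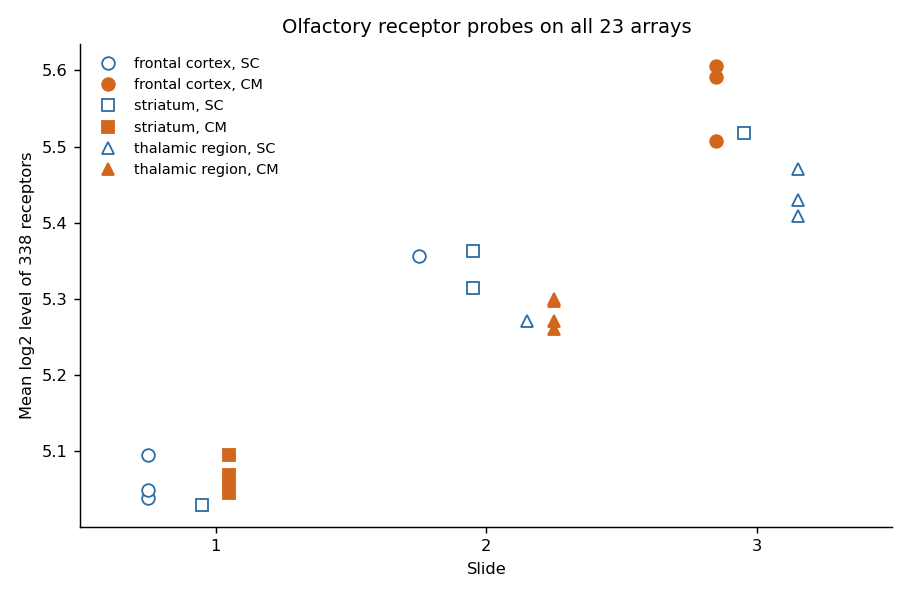
Mean log2 level of 338 olfactory receptor probes on each of the 23 arrays, by slide. Symbols give the tissue, open and filled symbols the SC and CM diets. The 3 slides occupy separate bands, at 5.03 to 5.09, 5.26 to 5.36 and 5.41 to 5.61, each holding arrays of both diets.

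The diet difference of the frontal cortex was also set against that of the other tissues. It differed from the difference in the striatum at 9454 identifiers and from that in the thalamic region at 6267 (limma interaction contrasts, adjusted p under 0.05). Of the 834 DE rises of the frontal cortex 422 were called lower in CM in the striatum and 27 in the thalamic region, and 0 were called higher in either. Of the 88 DE falls 1 was called lower in the striatum and 0 in the thalamic region. The diets were spread over the slides differently in each tissue, and with slide as a fixed block limma found 0 differing identifiers in both contrasts (1468 and 1507 at an unadjusted p under 0.05).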

How the data were processed

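Labelled RNA was hybridised to 1-colour Agilent arrays and scanned with Feature Extraction 10.7.3.1, giving deposited spot intensity values (62976 spots an array). The authors corrected background with normexp, normalised quantiles over all 23 arrays, kept spots at least 1.1 times the 95th percentile of negative controls on 4 or more arrays, averaged spots by transcript identifier and deposited log2 values. These were rebuilt from the intensities to within 5e-09. Limma 3.58.1 (R 4.3.3, statmod 1.5.0) was fitted to the deposited log2 values with 6 group means of tissue and diet, array weights, mouse as a random block, empirical Bayes and Benjamini-Hochberg adjustment over 31395 identifiers. Changes are therefore weighted and can differ from differences of plain means. The weights were 0.307, 0.543, 0.971 and 0.724 for SC mice 52, 54, 56 and 58 in the frontal cortex. Those of CM mice 54, 56 and 58 were 2.084, 2.744 and 1.779. The test was tried on simulated data with less noise than the real arrays and no slide effect, so that trial does not bear on slide. The number of arrays limits precision, and p-values measure the spread between these arrays. An exact permutation test of 3 against 4 cannot give a two-sided p under 0.057.

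Named genes were the 12 largest rises and 12 largest falls among established genes in the brightest quartile with no overlap between diets, members among the 4 brightest or the DE of each list, and the 3 largest DE changes each way. Other list members were named after their values were seen, because they passed the test or, for striatum and olfactory bulb markers, bore on a neighbouring tissue. A gene with several identifiers was described by its brightest. The genes and lists were chosen with earlier results of these data known. Of the identifiers, 20202 (64.3%) matched a RefSeq gene. The alternatives tried were other slide, mouse and weight terms, other background, scaling and filters, 1 value per probe, frontal cortex arrays alone and leaving out each array. Some genes that met these rules are not reported here.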

Additional observations from a re-analysis of the deposited data

Results flagged for a closer look

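Within the 4 SC arrays, 18 of 157 genes had 1 array set apart from the rest, measured as its gap to the nearest array over the whole range and read against Dixon's 95% critical value. About 1 in 20 such groups is set apart by chance. SC mouse 52, the chow array on slide 2, was the highest for Txn1 (0.958), Cd244 (0.897), Ndfip2 (0.864), Mdh1 (0.844), Rps21 (0.836) and Lingo1 (0.835). It was the lowest for Scd1 (0.903), Aldh1l1 (0.899), Cnp (0.871), Hist2h2aa2 (0.858), Psmd3 (0.853), Mchr1 (0.851) and Gdnf (0.839). SC mouse 54, whose olfactory bulb markers were high, was the highest for Gad1 (0.941), Doc2g (0.883) and Tet3 (0.844) and the lowest for Sst (0.865). SC mouse 56 was the lowest for Cox6a1 (0.841). The diet effect differed between tissues at 9454 identifiers for frontal cortex against striatum and at 6267 for frontal cortex against the thalamic region (limma interaction contrasts), and what slide contributed to these counts cannot be told apart from diet.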

How the results depend on the processing

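Counts are given as DE rises and DE falls, against 834 and 88. With slide as a fixed block there were 0 and 0, and 0 identifiers were higher, lower or different from striatum or thalamic region. A random slide block gave 169 and 2, with 1422 identifiers higher, 576 lower, 2150 different from striatum and 662 from the thalamic region. Without array weights there were 230 and 12, with 2389 higher, 1245 lower, 6292 and 1238 different. With frontal cortex arrays only the DE falls numbered 10 and 2303 identifiers were lower, and with quantile normalisation within them 6 and 2308; neither fit holds the other tissues, so it gives no contrast with them. A normexp offset of 50 gave 289 and 19, 75th percentile scaling of the processed signal 2928 and 57, 1 value per probe 1416 and 133, and a limit of 1.5-fold at an adjusted p under 0.1 gave 2873 and 1238. Requiring signal above background on all 7 arrays left 506 rises. Leaving out each array gave 674 to 1093 rises and 32 to 193 falls, 3519 to 5137 identifiers higher, 2377 to 4694 lower, and 8095 to 10756 and 4445 to 7874 differing from striatum and thalamic region. Of the called identifiers 53.7% were higher, 68.5% with 75th percentile scaling, 65.7% without weights and 71.2% with slide as a random block. The cause was not tested.

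Of 120 called genes named here, 0 kept their call with slide as a fixed block, 36 with slide as a random block, 46 without weights, 72 with frontal cortex arrays only, 97 with 75th percentile scaling and 74 to 118 when 1 array was left out. A fixed slide block turned the sign of 23 changes: Slc25a22 (-0.24), Dlx3 (-0.13), Pnmal2 (0.12), Cpne7 (0.053), Pik3ip1 (0.024), Cs (0.051), Sod1 (0.13), Tas2r109 (-0.24), Tas2r113 (-0.13), Olfr1466 (-0.36), Olfr1415 (-0.27), Vmn1r65 (-0.15), Rps14 (0.11), Grik2 (0.012), Glp1r (-0.077), Dusp1 (-0.042), Igf1 (-0.25), Aldh1l1 (0.16), Scd1 (0.074), Ppargc1a (0.011), Hadhb (0.035), Hsf1 (-0.091) and Hdac1 (0.18).

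Mouse numbers are shared between the diets, but the deviations of same-numbered arrays correlated at -0.064, -0.073 and 0.121, so they share only a number. With the mouse number as a replicate block there were 835 DE rises and 87 falls, 4816 identifiers higher, 4215 lower, and 9515 and 6373 differing from striatum and thalamic region. Dim spots limit what can be read, since 24266 of 31395 identifiers were above background on all 7 arrays and 1647 on none.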
